A study of Mus musculus with 9 samples.

Results

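Monocyte prog II is 1 of 17 cell populations that single-cell RNA-Seq resolved in mouse bone marrow. Its members here are the genes that the authors' table of top markers lists under that name, which are 20 of 293 entries and 20 of 234 different genes. Each entry sets the cells of a population against all other cells, with the mice pooled. The marrow came from C57BL/KaLwRij mice, a strain that accepts the 5TGM1 mouse myeloma line, all aged 12 weeks per the labels. By label, 3 samples were CST6, 3 PBS and 2 Control, and 1 had no label for its agent. The label of 1 PBS sample is in doubt, since its title is numbered with those of the Control samples. CST6 is cystatin M/E, given as a recombinant mouse protein that inhibits cysteine proteases, and PBS is its vehicle. In the study, CST6 and PBS mice carried 5TGM1 cells marked with GFP and control mice carried none. The cells sequenced were mononuclear cells from a density gradient, sorted to be free of GFP, so the myeloma cells themselves were left out by design. The table pools the mice, so it holds no effect of tumor or of CST6 on these cells, no cell counts and no replicate error.

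Monocytes, macrophages and osteoclasts descend from marrow progenitors that they share with neutrophils. Early in that course, cells turn on the genes of primary (azurophil) granules, which store myeloperoxidase and a family of serine proteases for killing microbes. Dividing progenitors also make many ribosomes, and the nucleolus, where ribosomal RNA is made and assembled with protein, is prominent in them. Genes of monocytes such as the M-CSF receptor come up as the cells commit.

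Both programs stood side by side in Monocyte prog II. Of the 19 members described here by name, 4 were primary granule genes, 2 coded for ribosomal proteins, 4 belonged to the ribosome assembly and nucleolus list, 2 to the chaperones and 5 to replication, chromatin and nuclear transport. The other members were the galectin gene Lgals1 and the coagulation factor gene F13a1. The score that ordered them was the area under the receiver operating characteristic curve (AUC), which is 1 where a gene's level alone tells the population from all other cells. Listed AUCs ran from 0.918 down to 0.804, and listed log2 fold changes from 2.28 down to 1.36. All 4 marker genes given for this population, Prtn3, Mpo, Hsp90ab1 and Npm1, were among the 20. Because clusters were formed from these same genes and cells, the values describe the population and no test of them is given.

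**Figure D1:**
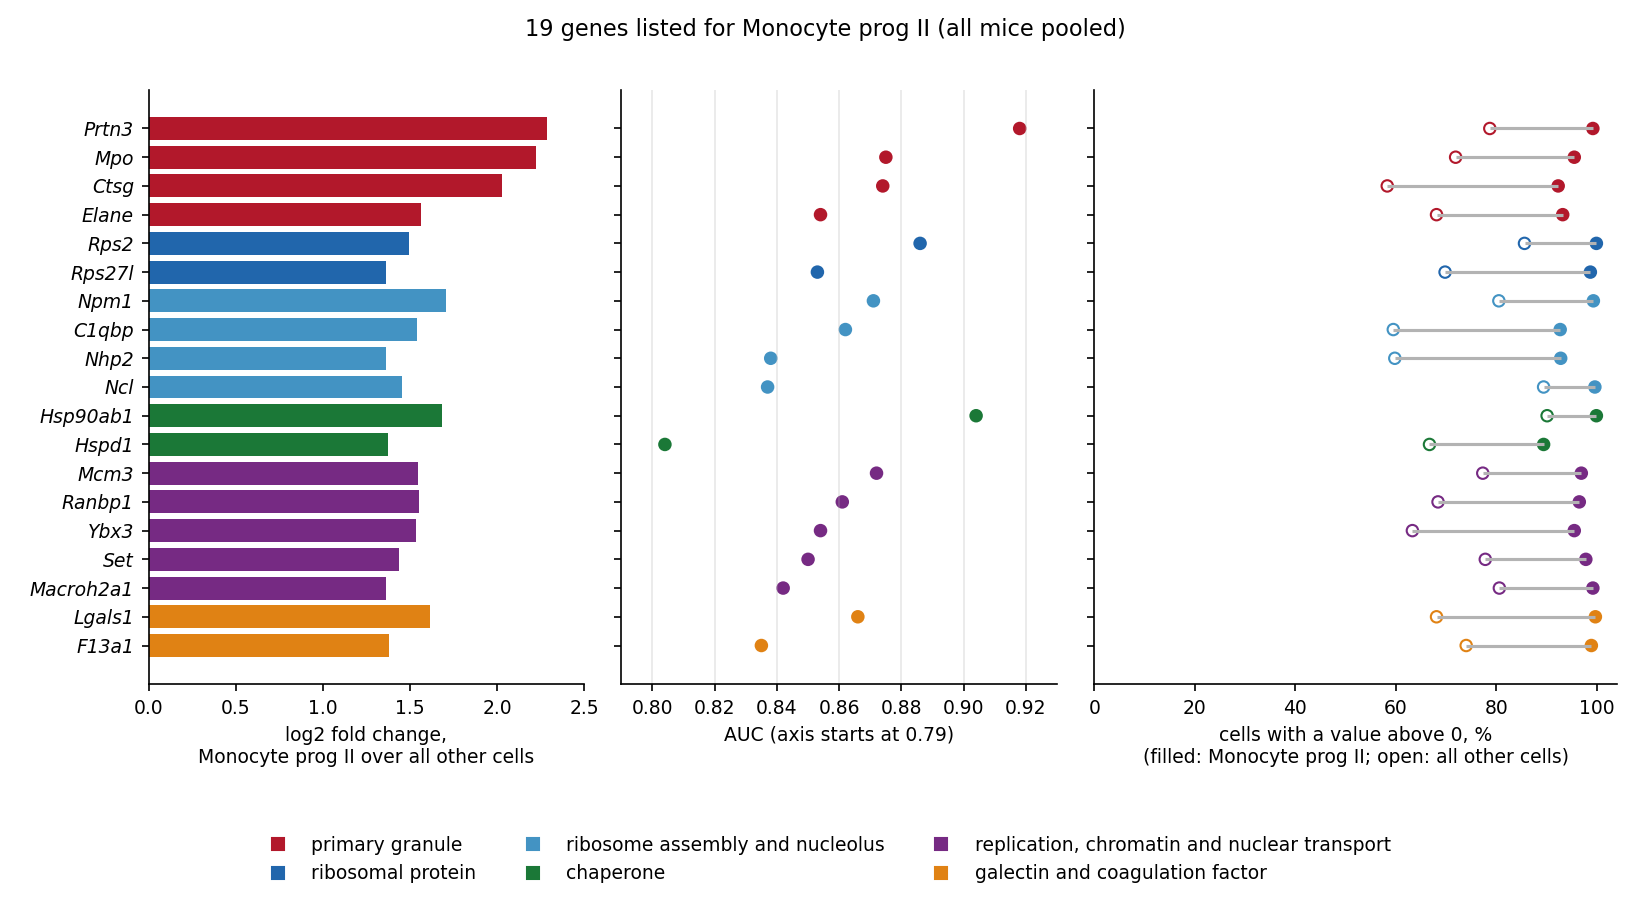
The 19 named members, coloured by role, with the log2 fold change of Monocyte prog II over all other cells (left), the AUC (middle) and the percentage of cells with a value above 0 in Monocyte prog II and in all other cells (right). Prtn3 and Mpo had fold changes of 2.28 and 2.23, and every open point lay at 58.3% or above.

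Of the 4 primary granule genes, 3 carried the highest fold changes of the list. Prtn3, which codes for proteinase 3, led by both measures, with an AUC of 0.918 and a log2 fold change of 2.28 over all other cells. It had a value above 0 in 99.2% of Monocyte prog II cells and in 78.7% of all others. Mpo, coding for myeloperoxidase, which makes hypochlorous acid from hydrogen peroxide, had a fold change of 2.23 and values in 95.5% of these cells, against 71.9% of all others. Ctsg codes for cathepsin G, a serine protease despite its name, and stood at 2.03 with values in 92.3% of Monocyte prog II and 58.3% of other cells. That gap of 34 percentage points was the widest of the 20 members. Elane, the neutrophil elastase gene, came lower, at 1.57, with 93.2% of Monocyte prog II cells against 68.1% of all others. The 3 members of other roles with the highest fold changes were Npm1 at 1.71, Hsp90ab1 at 1.68 and Lgals1 at 1.62. Of the 4 granule genes, 0 were particular to this list: all 4 stood in the Myeloid prog list as well, and Ctsg also in that of the Eosinophil/Basophil prog.

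In mm10, Prtn3 lies on chromosome 10 from 79879667 to 79883174 and Elane on the same chromosome from 79886312 to 79888216, with 3137 bases between them. Mpo lies on chromosome 11 from 87793784 to 87804412 and Ctsg on chromosome 14 from 56099885 to 56102574. All 20 members matched a RefSeq gene by symbol, all are annotated as protein-coding, and they lie on 12 chromosomes. The stretches upstream of the 4 granule genes are shown because these members were listed together in a pair of populations. RefSeq windows of 300 bases around annotated starts (GRCm38.p6, the assembly behind mm10) were at hand for 16 of the 20 members, Hsp90ab1, Npm1 and Lgals1 being among those without one. Each stretch below runs 5′ to 3′ on the strand of its gene, with the letters AGGAAGT in capitals. That string holds the GGAA core bound by ETS factors such as PU.1, a regulator of myeloid cells.
Prtn3, chr10:79879543-79879612, + strand: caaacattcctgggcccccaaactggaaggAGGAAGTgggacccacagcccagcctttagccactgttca
Elane, chr10:79886198-79886267, + strand: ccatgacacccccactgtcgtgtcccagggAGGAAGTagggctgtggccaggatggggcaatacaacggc
Mpo, chr11:87793534-87793603, + strand: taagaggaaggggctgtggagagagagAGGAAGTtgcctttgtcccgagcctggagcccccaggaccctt
Ctsg, chr14:56102741-56102810, - strand: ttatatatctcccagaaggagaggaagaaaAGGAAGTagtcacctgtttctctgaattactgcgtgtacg

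AGGAAGT began 94 bases before the annotated start of Prtn3, 84 before that of Elane, 223 before that of Mpo and 206 before that of Ctsg, each time on the strand of the gene. Read on both strands, it was present in the windows of 4 of 4 granule genes and of 2 of the other 12 members, Mcm3 and F13a1. Of all 32851 windows, 9.35% held it. These strings were chosen after the sequences had been read, so the counts are a description. Members were counted by gene, with a match in any window of the gene, and some had several windows. The percentages of all windows are not by gene, so the units differ. By gene, 6 of 18 Myeloid prog members with a window and 3 of 17 Monocyte prog I members held AGGAAGT. The GC box GGGCGG, a site of Sp1-type factors in promoters of widely used genes, divided the members the other way. It was found on either strand in 0 of 4 granule genes and in 11 of the other 12 members with a window, the exception being F13a1, against 35.7% of all windows. It occurred in 5 of 18 Myeloid prog genes and in 13 of 17 Monocyte prog I genes. The E-box CACGTG, bound by MYC among others, was in the windows of Hspd1 and Set, 2 of 16 members, and in 7.15% of all windows. The TATA box string TATAAA was found in Ctsg and Rps2, 2 of 16 members, and in 13.6% of all windows. The CCAAT box, CCAAT, was found in 9 of 16 members, Elane the only granule gene among them, and in 37.4% of all windows. Matches of the string with the ETS core, the GC box and the E-box overlapped one another in 0 cases in these windows. No count is given for overlaps with the other strings. Upstream stretches of a pair of nucleolar genes follow, with the match nearest the start in capitals, which on the strand of the gene reads as CCGCCC.
Ncl, chr1:86359488-86359557, - strand: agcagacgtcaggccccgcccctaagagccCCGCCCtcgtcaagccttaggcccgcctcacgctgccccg
Nhp2, chr11:51619636-51619705, + strand: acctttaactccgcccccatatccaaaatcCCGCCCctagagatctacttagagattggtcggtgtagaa

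Genes for making ribosomes formed the second block. Rps2, coding for a protein of the small ribosomal subunit, had an AUC of 0.886. Its log2 fold change over all other cells was 1.49, and it had values in 99.9% of Monocyte prog II cells, against 85.6% of all other cells. Rps27l, a paralog of the ribosomal protein gene Rps27, stood at 1.37, with 98.7% against 69.8%. No ribosomal protein gene was listed for any of the other 16 populations. Npm1 codes for nucleophosmin, a nucleolar chaperone of ribosome assembly, and had the fourth highest fold change of the members, 1.71, with values in 99.3% of these cells against 80.5%. Ncl, the gene of nucleolin, which acts in ribosomal RNA synthesis, reached 1.46, with values in 99.6% of Monocyte prog II but also in 89.4% of other cells. Nhp2 codes for a protein of the H/ACA particles that modify ribosomal RNA and had a fold change of 1.36, the lowest of the 20, with 92.8% of Monocyte prog II against 59.8% of other cells. C1qbp, a mitochondrial matrix protein gene kept in the same list, stood at 1.54 and 92.7%, against 59.5% of other cells. None of these 4 was listed for another population, which held for 184 of all 293 entries. Of 22 genes on the ribosome assembly and nucleolus list, 4 were listed anywhere in the table, all 4 in Monocyte prog II, whereas 0 of 12 translation factor genes were listed for any population. Such lists were chosen with earlier results of these data known, so the counts are a description only. No population had more than 20 genes listed, so a gene absent from a list may still be expressed there. Many ribosomal protein genes, and Npm1, have processed copies elsewhere in the genome, and no source used here says how reads shared with such copies were counted.

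Chaperones, replication and chromatin made up most of the remainder. Hsp90ab1, the constitutive cytosolic HSP90, had the second highest AUC of the members, 0.904, and a log2 fold change of 1.68. It also had the narrowest gap in detection, 9.8 percentage points, with values in 99.9% of Monocyte prog II and 90.1% of all other cells. Hspd1, the mitochondrial HSP60 gene, closed the list at an AUC of 0.804, with a fold change of 1.38 and values in 89.4% of these cells against 66.7%. Mcm3 codes for a subunit of the helicase that licenses origins of replication and stood at 1.55, with values in 96.9% of Monocyte prog II against 77.3% of other cells. It was the only member on the list of 20 replication genes, and 0 members were on the list of 25 mitosis genes. Ranbp1, a partner of the GTPase Ran in nuclear transport, also stood at 1.55, with 96.5% against 68.4%. Ybx3, a cold-shock domain protein that binds nucleic acids, reached 1.54 with 95.5% against 63.3%. Set, coding for a histone chaperone and inhibitor of the phosphatase PP2A, had 1.44 with 97.8% against 77.8%. Macroh2a1, a variant of histone H2A, had 1.36 with 99.2% against 80.6%. Of these 7 members, only Macroh2a1 was listed elsewhere, for Lymphomyeloid prog II at 1.97. Over the whole series, 184 of 293 entries were of genes listed for 1 population.

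Lgals1 and F13a1 were found in almost every cell of the population, as were most members, whose median was 98.3%. Lgals1 codes for galectin-1, a lectin that binds galactosides, and had a log2 fold change of 1.62 with values in 99.7% of Monocyte prog II and 68.1% of all other cells. It was also listed for Lymphomyeloid prog I, at 1.80 but in 92.6% of those cells. F13a1 codes for the A subunit of coagulation factor XIII, which monocytes and macrophages make. It was next to last by AUC, 0.835, with a fold change of 1.38 and values in 98.9% of Monocyte prog II against 74.0% of all others. In Monocyte prog I the same gene led the list, with an AUC of 0.902 and a fold change of 2.06, and in Macrophages it stood at 2.14.

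The name of the population was set beside markers of the cell types the gate could hold. F13a1 was the only 1 of 13 monocyte markers listed for it, while 3 of the 13, F13a1, Fn1 and Ms4a6c, were listed for Monocyte prog I and 0 for Myeloid prog. Of 6 markers of early granule-forming cells, Monocyte prog II had 4, all but Prss57 and Ms4a3. Myeloid prog had all 6 and Monocyte prog I had 0. The 4 in Monocyte prog II included Prtn3 and Mpo, which were also given as its markers, so their presence was fixed in advance. Markers of neutrophils (13 genes), erythroid cells (7), megakaryocytes (3), B cells (6), T and NK cells (4), plasmacytoid dendritic cells (4), basophils and mast cells (5), stem cells (6) and plasma or myeloma cells (4) were absent from its 20 entries. Neither did any of 17 osteoclast genes or of 14 genes for cysteine cathepsins and for cystatins, the family of CST6, appear among them. A gene that is not among the 20 was not a top marker, and its level in these cells is unknown. Apart from Prtn3 and Mpo, the granule markers listed were Elane and Ctsg, both also listed for Myeloid prog, and the monocyte marker was F13a1. These counts do not decide the cell type, and the name Monocyte prog II is kept here as the authors' own.

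The size of the population is not stated in the table but is bounded by it. For a gene listed for more than 1 population, the share of all cells with a value must be the same whichever entry it is computed from. The 50 genes listed more than once gave 69 such equations over the 17 populations, and 7 of these genes were members of Monocyte prog II. Allowing for rounding of each share to 3 decimals, and requiring the populations to add up to all cells, all equations could be met together. Monocyte prog II then held between 6.37% and 7.41% of all cells, with the middle at 6.89%. Myeloid prog held 3.11% to 4.01% and Monocyte prog I 9.05% to 10.1%. These ranges are limits set by rounding and are not confidence intervals, and they say nothing of how the share differed between mice. Monocyte prog II was smaller than 5 populations and larger than 10 without overlap of the ranges, and its range overlapped that of Dendritic cells, at 5.80% to 7.22%. Without the requirement that shares add up to all cells, its range was 6.09% to 8.85%.

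**Figure D2:**
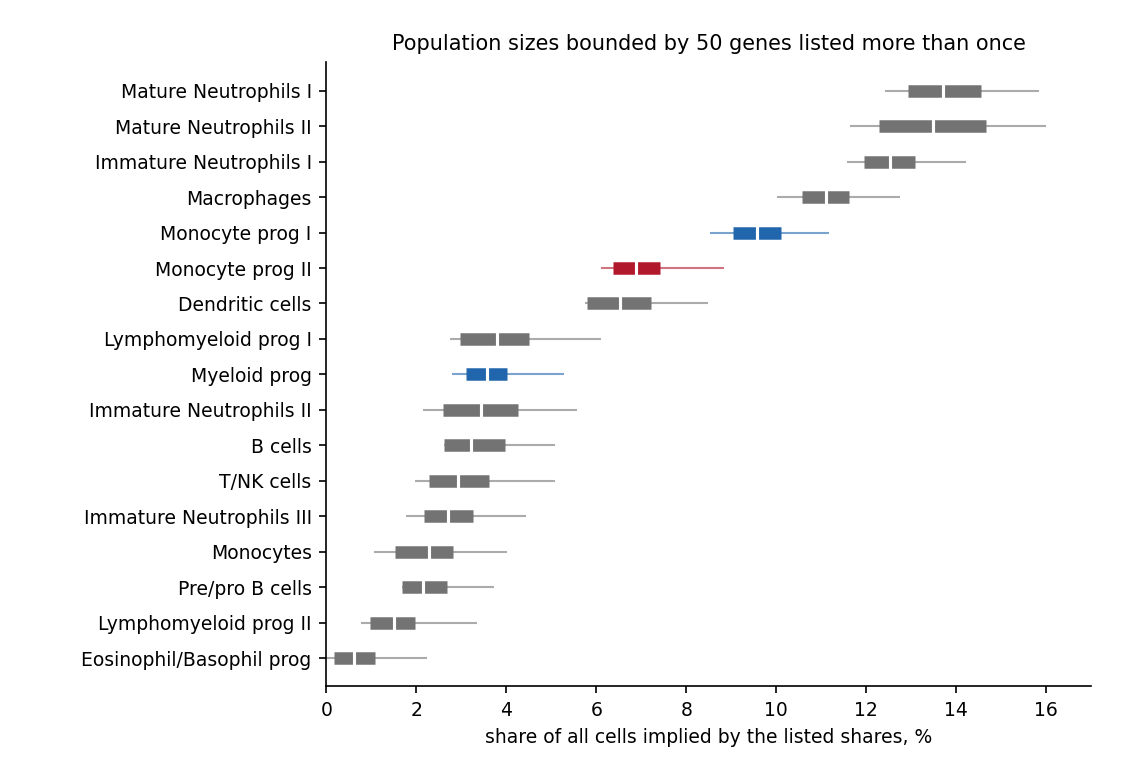
Share of all cells in each of the 17 populations, in percent, as bounded by the listed shares (thick bars), without the requirement that populations add up to all cells (thin lines), and by least squares (white ticks). Monocyte prog II, in red, spans 6.37% to 7.41% and lies between Monocyte prog I and Myeloid prog, in blue.

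With these sizes the members' reach over all cells could be computed. At the middle of the range, Ctsg had a value in 60.6% of all cells and Hsp90ab1 in 90.8%, the lowest and highest of the 20. Cells of Monocyte prog II made up between 7.59% (Hsp90ab1) and 10.5% (Ctsg) of all cells with a value for a member, with a median of 8.98%. Most cells in which a member was seen therefore lay in other populations. Breadth differed between lists: the median share of all other cells with a value was 73.0% for the genes of Monocyte prog II, against 67.5% over all entries. It ranked number 4 of 17, below Immature Neutrophils II at 79% and just above Monocyte prog I at 72.4%. The lowest were B cells at 49.8% and T/NK cells at 47.1%. Among B cell genes, Ighm, the immunoglobulin heavy chain gene, had a value in 76.5% of cells outside that population. No source used here says whether the shares were taken from UMI counts or from batch-integrated values. The part of free RNA in these shares was not tested.

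The granule genes could also be set directly against Myeloid prog, once each level had been expressed relative to the mean over all cells, using the population's size and its listed fold change. All 4 were lower in Monocyte prog II. The log2 ratio of Monocyte prog II over Myeloid prog was -1.49 for Prtn3, with limits of -1.54 and -1.44 from rounding, and -1.62 for Ctsg (-1.67 to -1.57). For Mpo it was -1.88 (-1.96 to -1.81), and for Elane -2.46 (-2.55 to -2.38). Elane was thus 5.51-fold and Prtn3 2.81-fold lower in Monocyte prog II than in Myeloid prog, and the rounding limits of these genes did not overlap. The order of fold changes over all other cells differed accordingly, with Prtn3, Mpo, Ctsg and Elane in Monocyte prog II at 2.28, 2.23, 2.03 and 1.57. In Myeloid prog, Elane came first at 4.83, followed by Mpo at 4.70, Prtn3 at 4.08 and Ctsg at 3.97. Levels in Seurat carry an added constant, so such ratios understate differences of low genes. Limits here and below cover rounding of the shares only. No source used here says whether the fold changes came from UMI counts or from batch-integrated values, and the ratios carry that uncertainty.

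**Figure D3:**
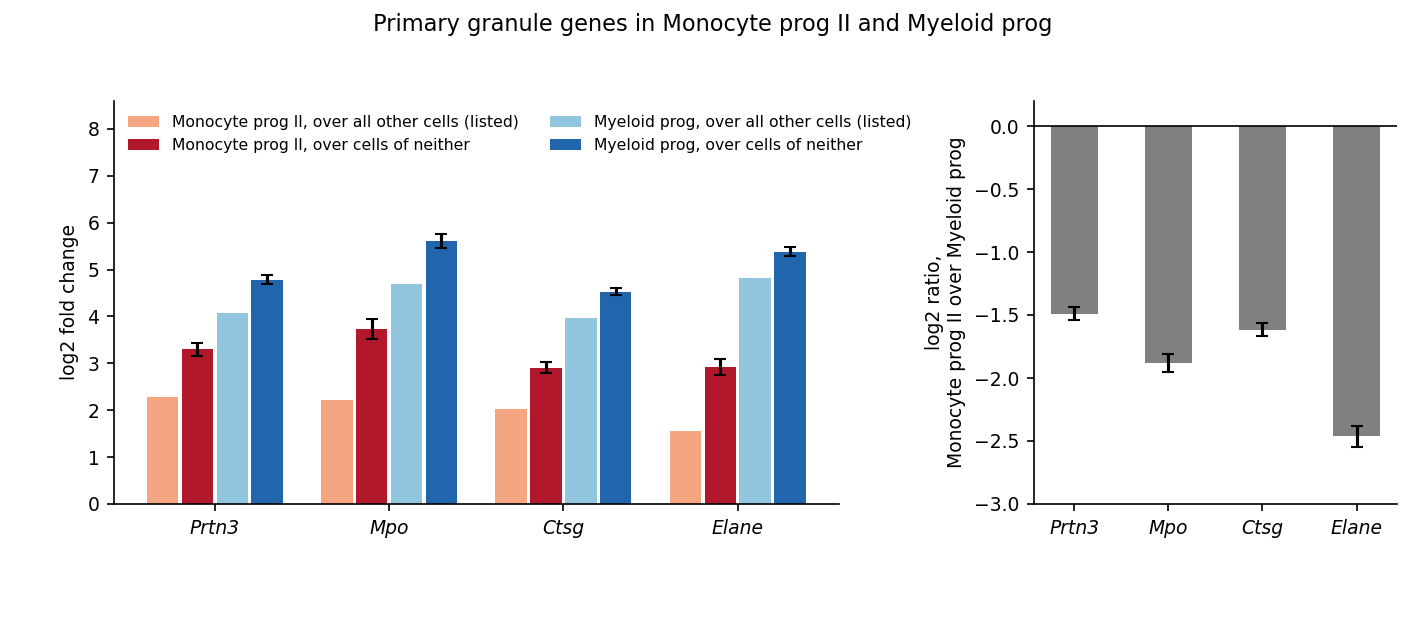
Left, log2 fold changes of 4 primary granule genes in Monocyte prog II (reds) and Myeloid prog (blues), over all other cells as listed (pale) and over the cells of neither population as derived (dark). Right, log2 ratio of Monocyte prog II over Myeloid prog; error bars are limits from rounding, and Elane has the lowest ratio, -2.46.

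Because the cells set against Monocyte prog II include Myeloid prog, the listed fold changes of these genes are held down. Over the cells of neither population, Mpo in Monocyte prog II reached a log2 fold change of 3.72 (limits 3.51 to 3.94) in place of 2.23. Prtn3 reached 3.30 (3.16 to 3.44), Elane 2.92 (2.75 to 3.09) and Ctsg 2.91 (2.79 to 3.03). The corresponding values in Myeloid prog were 5.60 for Mpo, 4.79 for Prtn3, 5.38 for Elane and 4.53 for Ctsg.

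Against Monocyte prog I, F13a1 was the single shared gene and was 1.37-fold lower in Monocyte prog II. Its log2 ratio of Monocyte prog II over Monocyte prog I was -0.45 (limits -0.46 to -0.43), and over Macrophages it was likewise -0.45 (-0.46 to -0.43). Over the cells of neither Monocyte prog II nor Monocyte prog I, F13a1 stood at 1.88 in Monocyte prog II and at 2.33 in Monocyte prog I. For Lgals1 the log2 ratio of Monocyte prog II over Lymphomyeloid prog I was -0.24, and Macroh2a1 was lower than in Lymphomyeloid prog II, at -0.70. Ctsg was 2.01-fold lower in Monocyte prog II than in Eosinophil/Basophil prog. In each of the pairs that the table allows, the shared member was thus higher in the other population.

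The lists of Myeloid prog and Monocyte prog I shared 0 genes with each other. Monocyte prog II shared 4 of its 20 genes (20% of either list) with Myeloid prog and 1 (5% of either list), F13a1, with Monocyte prog I. It also shared 1 gene each with Macrophages (again F13a1), Lymphomyeloid prog I, Lymphomyeloid prog II and Eosinophil/Basophil prog. The overlap of a typical pair of populations was not computed. Of the 20 genes of Monocyte prog II, 13 were listed for no other population, against 11 of 20 in Myeloid prog and 10 of 20 in Monocyte prog I. In all, 184 of 293 entries were of genes listed for 1 population only, so 13 of 20 was near the overall share. Among the 13 were Hsp90ab1, Rps2, Mcm3, Npm1, C1qbp, Ranbp1, Ybx3, Rps27l, Set, Nhp2, Ncl and Hspd1. With the share so near the overall one, nothing about their roles is read from it. Monocyte prog II shared at least 1 gene with 6 populations and 0 with the other 10, among them all 5 neutrophil populations, Monocytes and Dendritic cells. The top genes of Myeloid prog by AUC were Mpo, Prtn3, Elane, Ctsg and Ms4a3, the last a membrane protein gene at 3.30. Those of Monocyte prog I were F13a1, the integrin gene Itga1 at 1.56, the fibronectin gene Fn1 at 2.27, the tubulin gene Tubb5 at 1.60 and the topoisomerase gene Top2a at 1.75. Monocyte prog I listed 8 mitosis genes and Monocyte prog II none, while the replication list had 1 gene in each, Mcm3 in Monocyte prog II and Pclaf in Monocyte prog I.

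**Figure D4:**
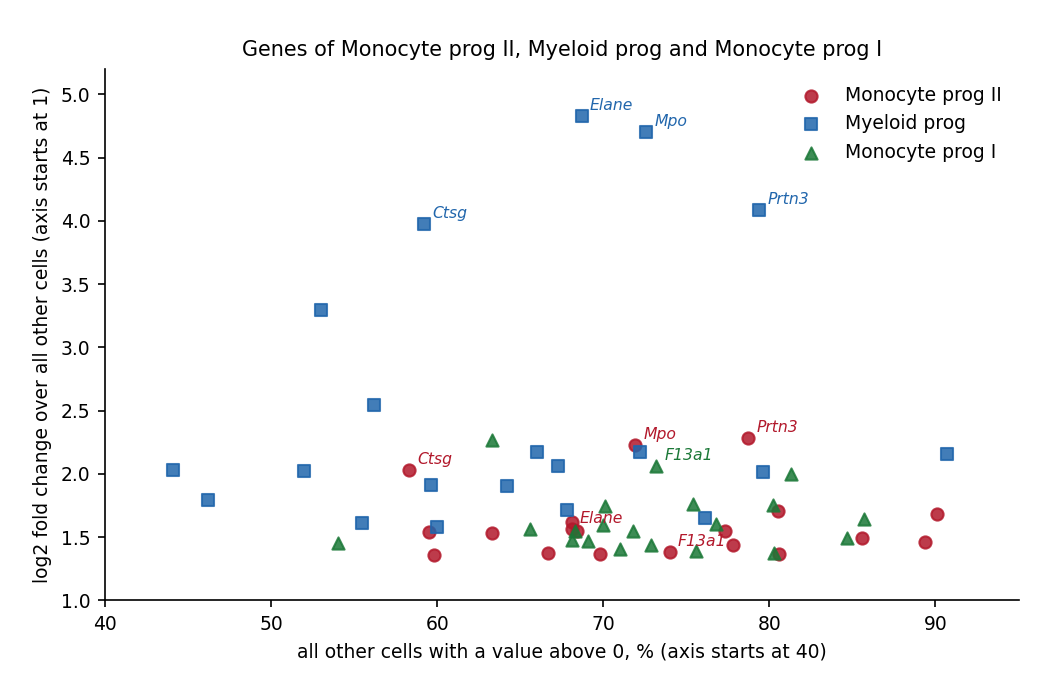
Log2 fold change over all other cells against the percentage of all other cells with a value, for the named members of Monocyte prog II (circles) and the listed genes of Myeloid prog (squares) and Monocyte prog I (triangles). Prtn3, Mpo, Ctsg and Elane lie between 1.57 and 2.28 in Monocyte prog II and between 3.97 and 4.83 in Myeloid prog.

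By median fold change the population lay nearer to Monocyte prog I than to Myeloid prog, though the genes behind these medians mostly differ. The median log2 fold change of its genes was 1.54, against 2.05 in Myeloid prog and 1.56 in Monocyte prog I, and 2.06 over all 293 entries. It ranked number 14 of 17 by this median, between Lymphomyeloid prog I at 1.54 and Immature Neutrophils I at 1.52. The median AUC was 0.862 in Monocyte prog II, 0.915 in Myeloid prog and 0.856 in Monocyte prog I. Its members were widely detected, with a median of 98.3% of its own cells and 73.0% of other cells, against 98.4% and 65.1% in Myeloid prog and 97.9% and 72.4% in Monocyte prog I. Each population was set against a different remainder of cells, and no test of these differences is possible without values per mouse.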

How the data were processed

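Per the labels, libraries were made with the Chromium Single Cell 3′ v3.1 kit from marrow mononuclear cells of 9 samples. Groups follow the agent label, and the sample without one stayed unassigned. Cell Ranger, Seurat 4 and the build mm10 are named in the submitters' processing notes. In the study's methods, the authors filtered cells on detected genes and mitochondrial share, integrated samples by reciprocal principal component analysis, clustered them by the Louvain method and searched for markers. Those methods name MAST, whereas the columns are those of the ROC test. No source used here says how doublets were treated. The deposited table holds the authors' AUC and power as scores, their average difference on the natural log scale, their log2 fold change and the fraction of cells with a value above 0, printed here as a percentage. These are the authors' own values over pooled mice, each population against all other cells. The table has 0 columns per sample, so depth is unknown and neither intervals nor tests are given.

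Named genes are the members, of which 1 is not reported here, with, in Myeloid prog and Monocyte prog I, shared genes and the 5 of highest AUC. Pclaf, Ms4a6c, Prss57 and Ighm fall outside this rule and were named after their values were seen. The members and lists were chosen with earlier results of these data known. Population sizes were bounded by linear programming (SciPy 1.17.1, Python 3.11.15) with a rounding half-width of 0.0005. Data simulated under the same assumptions checked the code only, and cannot show that the authors' values meet those assumptions. The level in a population relative to all cells followed from its size f and linear fold change F as 1/(f + (1 − f)/F). Limits of ratios are the extremes over all sizes that meet the equations. Alternatives dropped the closure, doubled the half-width, used least squares, left out linking genes or used the 10 highest genes. Others left out the genes the study names or matched the gene lists by older and alternative symbols.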

Additional observations from a re-analysis of the deposited data

How the results depend on the processing

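Of 68 alternative values, 57 stayed within the limits set for them. These were the rounding limits, 1.5 times the count reported or, for the median fold change, the quartiles of the members. Many alternatives left out only a few of the linking genes or matched symbols anew, and had little room to differ. The tally is therefore no measure of robustness. When the shares of the populations were not required to add up to all cells, the middle of the range was 7.47% for Monocyte prog II and 4.04% for Myeloid prog. The log2 ratio of Monocyte prog II over the cells of neither population was then 3.47 for Prtn3, 4.00 for Mpo, 3.05 for Ctsg and 3.12 for Elane. These moves follow from the alternative itself, which allows larger sizes. Over its 11 alternatives the middle for Monocyte prog II ran from 6.86% to 7.47%. When each list was limited to its 10 genes highest by log2 fold change, the numbers of genes shared with Macrophages, Monocyte prog I, Lymphomyeloid prog II and Eosinophil/Basophil prog were 0, 0, 0 and 0, since fewer genes entered, while 4 remained shared with Myeloid prog. The 10 genes of highest AUC had a median log2 fold change of 1.65. No paired analysis was possible because the table has no values per sample. The lack of cell numbers, depth and replicates limits every value to a description of the pooled cells.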

Other observations

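The populations stood in the table nearly in order of the sizes derived here: the rank by size equalled the place in the table for 15 of 17, and the exceptions, Monocytes at 1.52% to 2.82% and Pre/pro B cells at 1.67% to 2.69%, overlapped in range. The place in the table was not used to derive the sizes. Monocyte prog II was number 6 in both.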
